A study of Mus musculus with 4 samples.

Results

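The 8 genes described here make, sense and clear extracellular adenosine. They were chosen by gene name from a deposited count table, and all 8 were found among its 22672 named genes. Activated splenic T cells had been sequenced as 4 RNA libraries. The donor mice were of the Pmel strain, whose T cells bear a transgenic receptor against gp100, a melanocyte protein. Both groups shared this receptor, and both were kept for 72 h with 1 µg/ml of peptide and 100 U/ml of interleukin-2. The groups were 2 libraries labelled SphK1 -/- (knockout 1 and knockout 2) and 2 libraries labelled WT control (control 1 and control 2). SphK1 is sphingosine kinase 1, the enzyme that makes sphingosine-1-phosphate. Whether the libraries of a label came from separate animals is not stated, so the spread that the p-values rest on may be technical. Age, sex and the structure of the knockout allele are not given in the sources used here.

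Cells release ATP when they are stressed, activated or dying. The ectoenzyme encoded by Entpd1 (CD39) removes phosphates from ATP and ADP to give AMP, and the one encoded by Nt5e (CD73) turns AMP into adenosine. Adenosine acts on T cells mainly through the receptor encoded by Adora2a, which couples to Gs, raises cyclic AMP and dampens T cell receptor signalling. It is removed by uptake through nucleoside transporters such as that encoded by Slc29a1, by deamination to inosine (Ada) or by phosphorylation to AMP (Adk). Dpp4 (CD26) is a surface peptidase that in humans also docks adenosine deaminase on the T cell surface.

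Counts on named genes totalled 50406140 and 53500852 in the libraries labelled knockout and 43642723 and 45760330 in the libraries labelled control. Sphk1, the targeted gene, held 35 and 18 reads in knockout 1 and knockout 2, against 2 and 4 reads in control 1 and control 2. This runs against the labels, so the groups are named by label throughout and every direction below rests on those labels. Cytotoxic T cell markers were abundant in every library: 7 of 7 were tested, and they summed to 3114 and 3145 CPM under the knockout label and 3371 and 3505 CPM under the control label. CPM are counts scaled to library size after TMM normalisation, which corrects library sizes for differences in RNA composition. A floor of 3 reads corresponded to 0.0598 to 0.0639 CPM. All 8 adenosine genes lay far above it and passed the filter on low counts. They share at most 1.39% of their 30-base words with other annotated genes, so copies elsewhere among annotated genes are few. The deposited table also holds 720 unnamed entries with values in the control libraries and none under the knockout label. Whether both labels were counted against the same annotation is not known, and this bears on every fold change between labels.

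No adenosine gene passed the threshold between labels. In edgeR's quasi-likelihood test with Benjamini-Hochberg adjustment over 12758 tested genes, 0 of 8 had an adjusted p below 0.05, while 6.75% of all tested genes did (6% higher and 0.752% lower under the knockout label). In a fit of single-copy genes alone, which share few words with other genes as the 8 adenosine genes do, 0.781% of 9094 tested genes were called, again with 0 of the 8. In the fit of all genes, at an unadjusted p below 0.05 the count was 2 of 8 (Entpd1 and Nt5e), against 14.9% of all tested genes. DESeq2 called 1 of 8 (Entpd1) and limma-voom 0 of 8. For 6 of 8 genes the values of the groups did not overlap, 4 with higher and 2 with lower values under the knockout label. Over all tested genes 44.8% did not overlap, 21% with higher and 23.8% with lower values. The median log2 fold change (knockout label over control label) was 0.017 over the 8 genes and −0.021 over all tested genes.

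**Figure D1:**
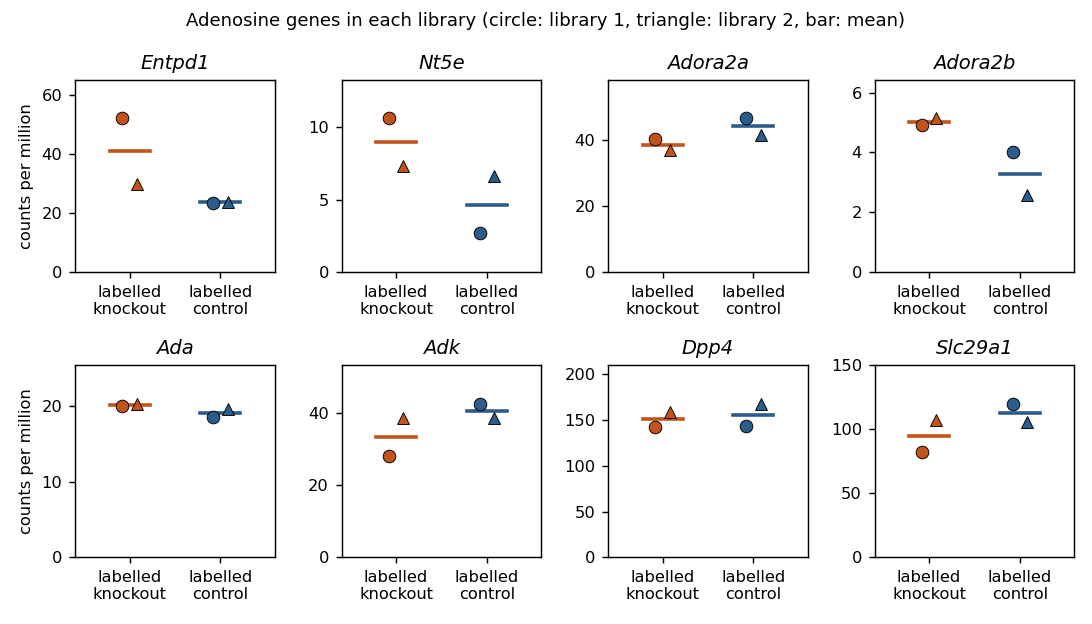
CPM (y axis, from 0) of the 8 adenosine genes in each library labelled knockout (orange, left) and control (blue, right). Circles are library 1, triangles library 2 and bars the group mean. Entpd1 has 1 high library, knockout 1 at 52.1 CPM, and Nt5e has 1 low library, control 1 at 2.68 CPM.

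Entpd1 (ENSMUSG00000048120, chromosome 19 from 40612366 to 40741602, plus strand, GRCm38) encodes the first enzyme of adenosine production. It stood at 52.1 and 29.9 CPM in knockout 1 and knockout 2, against 23.3 and 23.8 CPM in control 1 and control 2. The control libraries nearly coincided, knockout 2 lay just above them, and knockout 1 was 1.74 times knockout 2. Group means were 41.0 ± 15.7 CPM under the knockout label and 23.6 ± 0.359 CPM under the control label (SD, n = 2 each). The log2 fold change was 0.80 ± 0.23 (SE; 1.74-fold, 95% interval 1.21 to 2.51), with an adjusted p of 0.0997 in edgeR. Knockout 1 decided its size. Without knockout 1 the log2 fold change was 0.34 (adjusted p = 0.783 in edgeR), and without knockout 2 it was 1.142 (adjusted p = 0.000589). With a library left out, here and below, the spread within a label comes from the other label alone, and the lone library is assumed to vary like those. DESeq2 gave 0.81 with an adjusted p of 0.0129.

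Nt5e (ENSMUSG00000032420, chromosome 9 from 88327197 to 88372092, plus strand) encodes the enzyme that forms adenosine itself. It was at 10.6 and 7.33 CPM in knockout 1 and knockout 2, against 2.68 and 6.62 CPM in control 1 and control 2. The groups did not overlap, but knockout 2 and control 2 lay close together, and control 1 held 0.405 times the level of control 2. Means were 8.97 ± 2.32 CPM under the knockout label and 4.65 ± 2.78 CPM under the control label (SD, n = 2 each). The log2 fold change of 0.95 ± 0.39 (SE; 1.93-fold, 95% interval 1.04 to 3.57) had an adjusted p of 0.296 in edgeR. Here control libraries decided the value, which was 0.47 without control 1 (adjusted p = 0.673 in edgeR) and 1.75 without control 2 (adjusted p = 0.0118), with the spread taken from the 2 libraries labelled knockout alone.

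B cell markers were also highest in knockout 1, the library with the highest values of both enzymes. Among other cells, B cells, macrophages and dendritic cells are known to carry CD39, and B cells also CD73. Which cells held the transcripts of either enzyme here was not tested. All 7 B cell markers were highest in knockout 1, against 26.0% of all tested genes. The 7 markers summed to 390 and 184 CPM in knockout 1 and knockout 2, against 184 and 193 CPM in control 1 and control 2. Relative to the control mean, knockout 1 was at 2.07 for the B cell sum, 2.21 for Entpd1 and 2.28 for Nt5e. Knockout 2 was at 0.976 for the B cell sum, 1.27 for Entpd1 and 1.58 for Nt5e. Control 1 and control 2 were at 0.9765 and 1.02 for the B cell sum and 0.989 and 1.01 for Entpd1. For Nt5e they were further apart, at 0.577 and 1.42. The sum of macrophage and monocyte markers was at 2.32 in knockout 1 and 1.41 in knockout 2. That of dendritic cell markers was at 2.96 and 1.89. Of the 7 B cell markers Cd79a rose (log2 fold change 1.48, adjusted p = 0.0236 in edgeR), and the other 6 did not pass the threshold. Over all tested genes 6% were called higher. Cd79a shares 12.5% of its words with other genes. Its log2 fold change was 0.77 without knockout 1. In limma-voom, robust fitting and DESeq2 the log2 fold change was 1.36 to 1.49, about as large as the 1.48 above. Cd79a missed the threshold there (adjusted p = 0.0553, 0.305 and 0.0887). Its log2 fold change was 1.51 without control 2 and 1.49 without control 1, and it missed the threshold in both fits.

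Dendritic cell markers summed to 9.49 and 6.07 CPM under the knockout label, against 2.77 and 3.65 CPM under the control label. Of 4 tested, Flt3 rose (log2 fold change 1.94, adjusted p = 0.0332 in edgeR), against 6% of all tested genes called higher. Macrophage and monocyte markers summed to 29.9 and 18.2 CPM, against 11.2 and 14.6 CPM in the control libraries. Most of this sum was Cd68, at 22.2 and 13.2 CPM, against 7.26 and 9.47 CPM. Of 5 tested, Cd68 rose (1.08, adjusted p = 0.0478 in edgeR), against the same 6% of all tested genes. Csf1r, a defining marker of this lineage, stood at 0.339 to 0.371 CPM, and Fcgr1 had 1 read in all 4 libraries together. Without knockout 1 the log2 fold change was 1.48 for Flt3 (adjusted p = 0.379 in edgeR) and 0.65 for Cd68 (0.361). Without control 1 it was 1.75 for Flt3 (adjusted p = 0.160) and 0.93 for Cd68 (0.187). Without control 2 Flt3 was at 2.21 and also missed the threshold. Both genes missed the threshold in limma-voom and among single-copy genes. Cd68 also missed it with a minimum count of 30, DESeq2 size factors, library totals alone and robust fitting. It passed in DESeq2, with a replicate block and without the filter on low counts. Natural killer markers summed to 168 and 198 CPM, against 146 and 132 CPM. Klrk1, a receptor that activated cytotoxic T cells also express, made up 78.0% to 89.5% of this sum. The other markers summed to 37.1 and 20.8 CPM in knockout 1 and knockout 2, against 15.5 and 13.9 CPM in control 1 and control 2. Of the natural killer markers, 4 of the 5 tested were highest in knockout 1, against 26.0% of all tested genes. Of the 5, 0 passed the threshold in edgeR and 4 had an unadjusted p below 0.05. Over all tested genes these shares were 6.75% and 14.9%. All 5 were higher in both libraries labelled knockout than in both control libraries, against 21% of all tested genes. Klra4 and Klra8 had 0 reads in every library. Regulatory T cell markers summed to 2412 and 3285 CPM under the knockout label, against 3566 and 2852 CPM under the control label, and 92.7% to 97.8% of that sum was Il2ra, Ctla4 and Tnfrsf18, which activated T cells also express. Foxp3, the defining factor of regulatory T cells, was at 0.489 and 0.659 CPM under the knockout label, against 0.362 and 0.518 CPM under the control label. Helper T cell markers summed to 80.7 and 57.1 CPM under the knockout label, against 83.1 and 74.4 CPM under the control label. None of the 6 regulatory, 3 helper or 7 cytotoxic T cell markers passed the threshold in edgeR, against 6.75% of all tested genes. At an unadjusted p below 0.05 there were 1, 0 and 1 of them, against 14.9% of all tested genes. Of the 7 cytotoxic markers, 6 had lower values under the knockout label without overlap, against 23.8% of all tested genes. The part of these cells in the values of Entpd1 and Nt5e was not tested. In bulk samples, more cells of a type and more RNA per cell cannot be told apart.

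**Figure D2:**
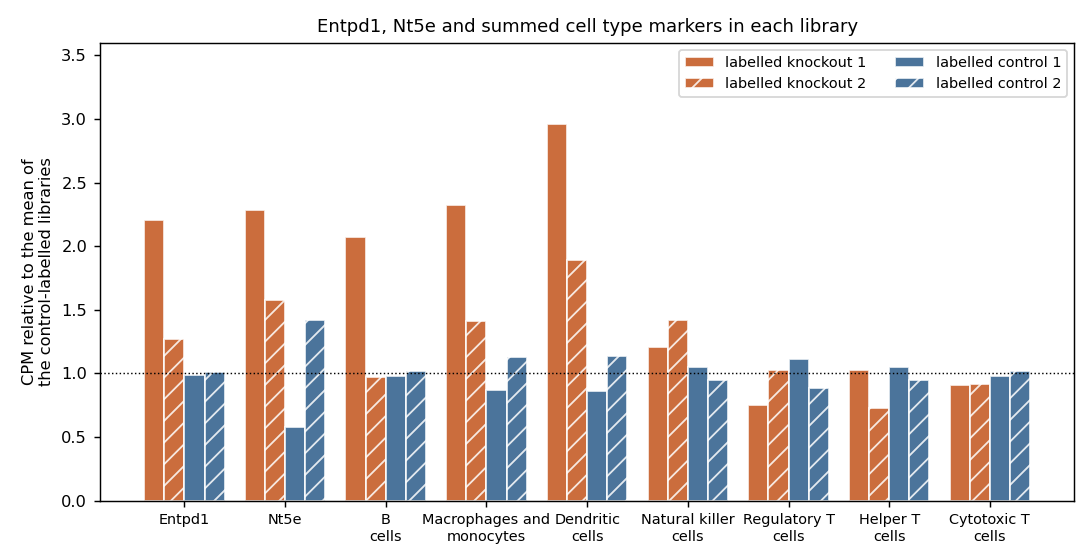
Level of Entpd1, of Nt5e and of the summed markers of 7 cell types in each library, as CPM divided by the mean of the control libraries (y axis, from 0; dotted line at 1). In knockout 1, Entpd1 (2.21), Nt5e (2.28) and the B cell sum (2.07) were above 2 times the control mean. So were the macrophage and monocyte sum (2.32) and the dendritic cell sum (2.96). Cytotoxic T cell markers were at 0.906 there. In knockout 2 the B cell sum was at 0.976, against 1.41 for macrophages and monocytes and 1.89 for dendritic cells.

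Both receptors of the Gs-coupled kind were detected. Adora2a (ENSMUSG00000020178, chromosome 10 from 75316877 to 75334784, plus strand), the main adenosine receptor of T cells, had 40.2 and 36.9 CPM in knockout 1 and knockout 2, against 46.7 and 41.7 CPM in control 1 and control 2. Every library labelled knockout was below every library labelled control, by a margin smaller than the gap between the control libraries. The means were 38.6 ± 2.35 CPM under the knockout label and 44.2 ± 3.54 CPM under the control label (SD, n = 2 each). Its log2 fold change was −0.20 ± 0.12 (SE; 95% interval 0.719 to 1.06-fold), with an adjusted p of 0.548 in edgeR.

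Adora2b (ENSMUSG00000018500, chromosome 11 from 62248984 to 62266453, plus strand), a receptor of lower affinity for adenosine, was at 4.91 and 5.15 CPM in knockout 1 and knockout 2, against 4.002 and 2.59 CPM in control 1 and control 2. The libraries labelled knockout agreed closely, while control 1 was 1.54 times control 2. Means were 5.03 ± 0.165 CPM under the knockout label and 3.30 ± 0.998 CPM under the control label (SD, n = 2 each). The log2 fold change of 0.61 ± 0.27 (SE; 1.53-fold, 95% interval 0.990 to 2.36) had an adjusted p of 0.353 in edgeR. Leaving out control 1 gave 0.99 (adjusted p = 0.119) and leaving out control 2 gave 0.34 (adjusted p = 0.513). The inhibitory receptors were near the floor. Adora1 had 2 and 2 reads under the knockout label, against 6 and 7 under the control label, and Adora3 had 0.404 and 0.165 CPM against 0.468 and 0.359 CPM.

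The bases upstream of a start site of Entpd1 and of Adora2b are shown because these are an enzyme and a receptor with higher values in both libraries labelled knockout. Each window holds the 250 bases before a RefSeq start (GRCm38.p6) and no annotated exon, read along the plus strand. Capitals mark the letters TGACG, the shorter form of the cyclic AMP response element, on either strand.
Entpd1, chr19:40659520-40659769: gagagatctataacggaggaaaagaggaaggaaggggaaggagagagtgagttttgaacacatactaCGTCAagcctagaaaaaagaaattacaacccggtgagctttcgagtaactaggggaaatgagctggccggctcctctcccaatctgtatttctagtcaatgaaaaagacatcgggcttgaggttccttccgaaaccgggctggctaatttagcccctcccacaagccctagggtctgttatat
Adora2b, chr11:62248734-62248983: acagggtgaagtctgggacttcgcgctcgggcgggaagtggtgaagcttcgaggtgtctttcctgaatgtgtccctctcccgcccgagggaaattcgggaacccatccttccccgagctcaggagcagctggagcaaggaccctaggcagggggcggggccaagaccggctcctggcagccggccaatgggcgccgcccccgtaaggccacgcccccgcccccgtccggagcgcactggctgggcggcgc
The Entpd1 window held 1 TGACG, on the opposite strand, beginning 183 bases before the start. This window lies inside the gene, in an intron of transcripts that start further upstream. The Adora2b window held none. Over both strands, TGACG occurred in 17.8% of the 32851 RefSeq windows of this length. Neither window held the full element TGACGTCA (1.55% of all windows) or the AP-1 motif TGANTCA (6.75%). The letters ACGTG, a form of the hypoxia response core, were also absent from both (16.6% of all windows). Other forms of that core were not searched. TGACG lies inside the full element, so these counts overlap. A match describes the letters only.

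Of the genes that clear adenosine, Ada varied little. Ada (ENSMUSG00000017697, chromosome 2 from 163726584 to 163750239, minus strand) had 20.0 and 20.4 CPM in knockout 1 and knockout 2, against 18.6 and 19.7 CPM in control 1 and control 2. The 4 libraries lay within a narrow band, with the groups just apart. Its log2 fold change was 0.081 ± 0.14 (SE; 95% interval 0.843 to 1.33-fold; adjusted p = 0.855 in edgeR), and its sign turned with library totals alone (−0.16).

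Adk (ENSMUSG00000039197, chromosome 14 from 21052574 to 21448569, plus strand), the kinase that returns adenosine to AMP inside the cell, was at 28.0 and 38.6 CPM in knockout 1 and knockout 2, against 42.6 and 38.7 CPM in control 1 and control 2. Knockout 2 was level with control 2, and knockout 1 was lower than the other 3 libraries. Group means were 33.3 ± 7.55 CPM under the knockout label and 40.6 ± 2.74 CPM under the control label (SD, n = 2 each). Between labels it differed by −0.29 ± 0.17 on the log2 scale (SE; 95% interval 0.630 to 1.07-fold; adjusted p = 0.508 in edgeR), and −0.071 without knockout 1.

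Slc29a1 (ENSMUSG00000023942, chromosome 17 from 45585200 to 45599606, minus strand), the equilibrative nucleoside transporter, gave 82.3 and 107.2 CPM in knockout 1 and knockout 2, against 120.3 and 106.2 CPM in control 1 and control 2. As for Adk, knockout 1 alone was low, and here the groups overlapped. The difference was −0.26 ± 0.15 on the log2 scale (SE; 95% interval 0.664 to 1.06-fold; adjusted p = 0.500 in edgeR), and −0.078 without knockout 1. Other genes cover 6.86% of its exonic bases, and the strand setting of the counting was not given.

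Dpp4 (ENSMUSG00000035000, chromosome 2 from 62330073 to 62412231, minus strand) had 142.7 and 158.7 CPM in knockout 1 and knockout 2, against 143.2 and 168.1 CPM in control 1 and control 2. The groups overlapped. Its log2 fold change was −0.047 ± 0.12 (SE; 95% interval 0.795 to 1.18-fold; adjusted p = 0.907 in edgeR), and the sign turned without knockout 1 (0.029) and without control 2 (0.079).

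**Figure D3:**
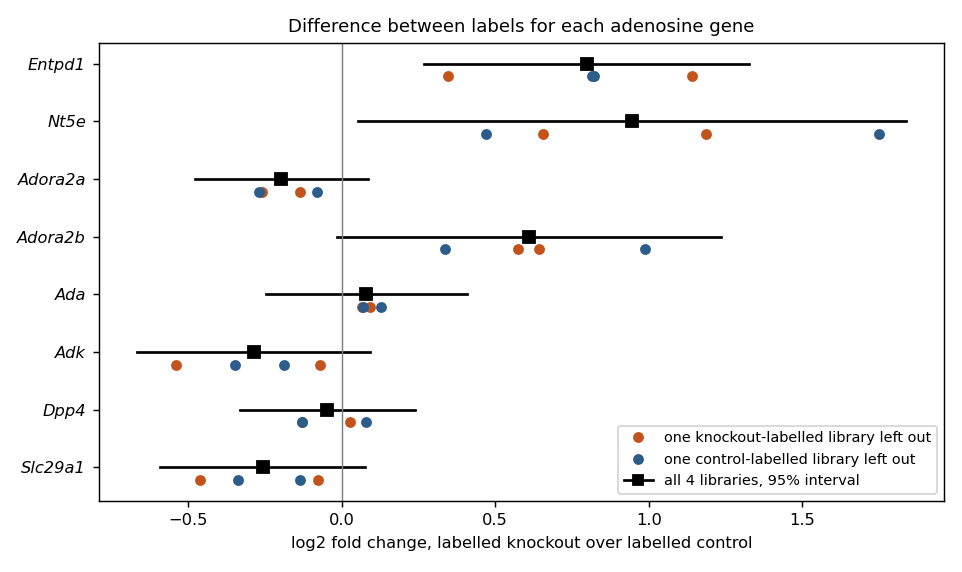
Log2 fold change (x axis, knockout label over control label) of each adenosine gene over all 4 libraries (black squares, line for the 95% interval), and with 1 library left out (orange for a knockout library, blue for a control library). The spread over left-out libraries is widest for Nt5e, from 0.47 to 1.75, and narrow for Ada, from 0.067 to 0.13.

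The scaling between libraries mattered for the genes with lower values. With library totals in place of TMM factors, the median log2 fold change of all tested genes was −0.26. Under that scaling Slc29a1 was at −0.50 (adjusted p = 0.0482 in edgeR) and Adora2a at −0.43 (adjusted p = 0.0490), both called lower. Relative to that median they stood at −0.24 and −0.17. Across the table, 652 genes were then higher and 1432 lower, against 765 higher and 96 lower with TMM factors.

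Levels can be compared between genes once divided by length. Per kilobase of all annotated exons, Slc29a1 (20.5 to 30.01 CPM per kilobase over the 4 libraries) and Dpp4 (22.6 to 26.6) stood highest and overlapped. Adora2a followed at 12.05 to 15.2 and Ada at 9.27 to 10.2 CPM per kilobase, each apart from its neighbours in rank, except that Entpd1 in knockout 1 (9.33) reached the range of Ada. Entpd1 (4.18 to 9.33) and Adk (3.28 to 4.99) overlapped, and Entpd1 ranked above Adk under the knockout label and below it under the control label. Adora2b (1.40 to 2.79) and Nt5e (0.312 to 1.23) were lowest. The Adora2a level per kilobase was 4.93 and 4.32 times that of Adora2b under the knockout label, against 7.03 and 9.69 times under the control label. Entpd1 exceeded Nt5e by 7.56 and 6.29 times under the knockout label, against 13.4 and 5.55 times under the control label. These ratios depend on the length used, here that of all annotated exons.

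Length itself is uncertain, most of all for Adk and Nt5e. Their annotated exons span 8526 and 8602 bases in all, against 1782 and 3995 bases in the longest principal transcript. For Slc29a1 these lengths are 4008 and 2216 bases. On the transcript length, an alternative chosen after the data were seen, Adk moved up to the third rank in each library, at 15.7 to 23.9 CPM per kilobase. Slc29a1 and Dpp4 were the first and the second in each library. Nt5e (0.671 to 2.66) and Adora2b (1.40 to 2.79) then overlapped at the low end, and Entpd1 was at 5.52 to 12.3.

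**Figure D4:**
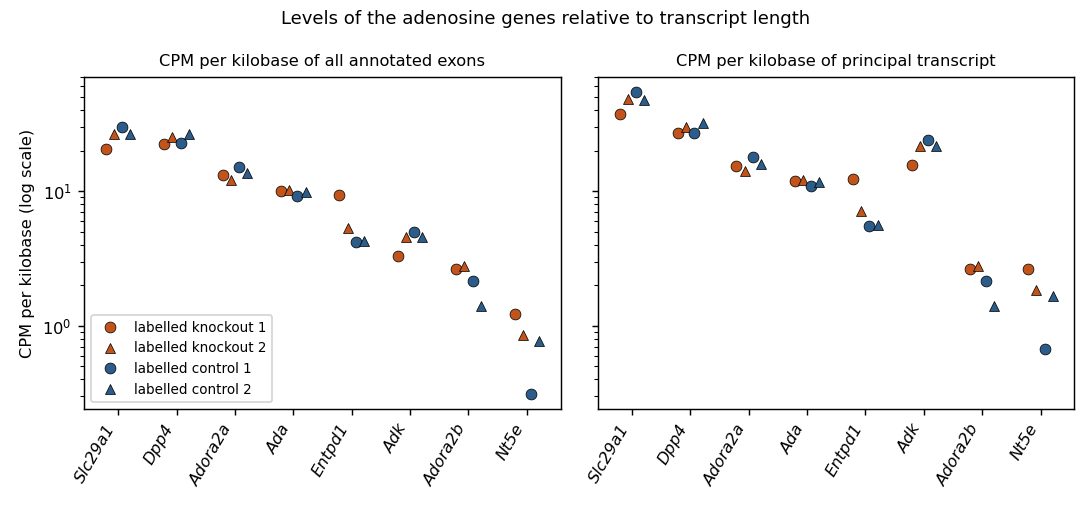
CPM per kilobase (y axis, log scale) of the 8 genes in each library labelled knockout (orange) and control (blue), by all annotated exons (left) and by the longest principal transcript (right). Slc29a1 and Dpp4 lead in both panels, while Adk moves from 3.28 to 4.99 in the left panel to 15.7 to 23.9 in the right panel.

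Other enzymes of extracellular nucleotide breakdown were tested as a list of 11 genes that includes Entpd1 and Nt5e. Of 8 tested, 0 passed the threshold in edgeR (6.75% of all tested genes) and 3 had an unadjusted p below 0.05 (14.9% of all). Without knockout 2 the count was 2, without control 2 it was 1, in DESeq2 1 and in limma-voom 0. Of the 8, 7 had a positive log2 fold change, and the median was 0.41. Knockout 1 was the highest library for 6 of these 8 genes and control 1 the lowest for 6 of 8. Over all tested genes knockout 1 was highest for 26.0% and control 1 lowest for 30.3%. Cd38, an NAD-consuming ectoenzyme of an alternative route to adenosine, had 39.8 and 22.03 CPM under the knockout label, against 15.7 and 24.8 CPM under the control label (log2 fold change 0.61, adjusted p = 0.399 in edgeR). Alpl, tissue-nonspecific alkaline phosphatase, had 6.999 and 4.2 CPM against 2.70 and 3.59 CPM (0.83, adjusted p = 0.223). Both were named after their values were seen.

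In the list of 11 genes of adenosine removal and nucleoside transport, 1 of 9 tested genes passed the threshold (6.75% of all tested genes). At an unadjusted p below 0.05 the count was also 1, against 14.9% of all tested genes. Ahcy, the enzyme that splits S-adenosylhomocysteine into adenosine and homocysteine, had 78.5 and 98.0 CPM in knockout 1 and knockout 2, against 25.3 and 23.8 CPM in control 1 and control 2. It rose by 1.85 ± 0.14 on the log2 scale (SE; adjusted p = 2.95e-05 in edgeR). Ahcy shares 71.6% of its 30-base words with other annotated genes, so its value is uncertain. The fit of single-copy genes leaves Ahcy out, and 0 genes of this list were called there. Of all tested genes with over 50% shared words, 43.1% rose, against 1.45% of those with at most 5%. The median log2 fold change of the list was 0.039.

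Among 18 tested genes of intracellular nucleotidases, AMP deaminases and purine salvage, 0 passed the threshold, against 6.75% of all tested genes. Of the 18, 6 were positive and 12 negative (median −0.081). The gene with the lowest p was Gda, guanine deaminase, at 0.851 and 0.906 CPM under the knockout label, against 0.426 and 0.259 CPM under the control label (log2 fold change 1.36, adjusted p = 0.135 in edgeR). Among 11 tested ATP release channels and P2 receptors 0 passed, against the same 6.75%, while 4 were positive and 7 negative (median −0.18). Lrrc8a, a subunit of volume-regulated anion channels, had the lowest p there, with 20.7 and 24.4 CPM against 28.1 and 32.3 CPM (−0.42, adjusted p = 0.203), and other genes cover 68.3% of its exonic bases. At an unadjusted p below 0.05 these lists held 2 and 2 genes, against 14.9% of all tested genes. DESeq2 and limma-voom called 0 in both, while library totals alone called 5 and 3 genes lower. The list of 4 adenosine receptors had 3 tested genes, with 0 called in edgeR, DESeq2 or limma-voom, against 6.75% of all tested genes in edgeR. Library totals alone called Adora2a lower. At an unadjusted p below 0.05 the count was 0 in edgeR, while Adora2b was below it in limma-voom and without the filter on low counts.

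Cyclic AMP signalling, the route downstream of Adora2a and Adora2b, was represented by 27 genes, all tested. 1 of 27 passed the threshold in edgeR (6.75% of all tested genes), 14 were positive and 13 negative, with a median of 0.034. At an unadjusted p below 0.05 there were 4 of 27, against 14.9% of all tested genes. The count of genes called higher was 2 in DESeq2 and robust fitting, 1 in limma-voom, 0 among single-copy genes or with library totals, and 0 to 2 with a library left out. Gnas, which encodes the Gs alpha subunit, had 1031 and 1031 CPM under the knockout label, against 982 and 1026 CPM under the control label (log2 fold change 0.038, adjusted p = 0.926 in edgeR). Atf1, a transcription factor of the CREB family, had 100.2 and 106.2 CPM in knockout 1 and knockout 2, against 74.9 and 60.2 CPM in control 1 and control 2. It rose by 0.61 ± 0.13 on the log2 scale (SE; adjusted p = 0.0243). The threshold was missed without knockout 2 (0.57, adjusted p = 0.0735 in edgeR), without control 2 (0.47, adjusted p = 0.0650) and with library totals alone (0.37, adjusted p = 0.0664). Atf1 shares 17.2% of its words with other genes.

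The genes whose pattern over the 4 libraries was nearest to that of Entpd1, by Euclidean distance of mean-centred log2 CPM, were Nrarp (distance 0.0084), Bcl3 (0.050) and Ero1lb (0.100). Entpd1 was used because it had the lowest p of the 8 genes. Bcl3, an atypical member of the IκB family, had 61.3 and 34.3 CPM in knockout 1 and knockout 2, against 26.2 and 27.7 CPM in control 1 and control 2. Nrarp, a feedback inhibitor of Notch signalling, had 5.62 and 3.21 CPM against 2.49 and 2.53 CPM, with 79.4% of its exonic bases under other genes. Ero1lb, an oxidase of disulfide bond formation, had 40.0 and 25.3 CPM against 18.7 and 19.3 CPM. None of the 3 passed the threshold in edgeR (adjusted p = 0.254 for Nrarp, 0.0971 for Bcl3 and 0.0707 for Ero1lb). With 4 libraries, many genes can share a pattern.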

How the data were processed

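Raw counts per gene were deposited by the authors as whole numbers in 4 columns, 1 per library. The submitters' processing notes list build GRCm38 with DESeq2 1.14.1, HTSeq 0.6.1p1, cutadapt 1.11 and TopHat2 2.0.13, without their roles. The annotation, strand setting and treatment of multiply mapped reads are not given in the sources used here. Of 23419 entries, 27 carried a calendar date and 720 no name, which took 0.261% to 0.312% of counts and 1.13% and 1.17% of counts in the control libraries (the unnamed entries have no value under the knockout label, and whether both labels were counted against the same annotation is not known). These were left out.

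Genes were compared with edgeR 4.0.16 in R 4.3.3 (filterByExpr at a minimum of 10 counts, TMM factors, quasi-likelihood test, adjusted p below 0.05 by Benjamini-Hochberg). The same test was run on counts simulated from these data. It recovered 64% of genes given a log2 fold change of 1 in size, and 94% at 2. Of its calls there, 9.2% were false. Standard errors were derived from the log2 fold changes and their F statistics. Alternatives used DESeq2 1.42.0, limma-voom (limma 3.58.1), other filters and scalings, robust fitting, a replicate block, each library left out, and single-copy genes only (at most 5% shared 30-base words and 10% exonic overlap in GENCODE M21, GRCm38). Lengths, coordinates and overlaps come from that annotation, which matched 21753 symbols directly and 627 by synonym. Replicates of a group differed by more than counting noise. Floors cover counting error only. The members and lists were chosen with earlier results of these data known. Named were the 8 members, called genes of each list or its gene with the lowest p, the 3 nearest genes and Sphk1. All other genes named (Cd38, Alpl, Gnas, Adora1, Adora3, those of Other observations and, beside Cd79a, Flt3 and Cd68, the cell type markers) fall outside this rule and were picked with their values known.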

Additional observations from a re-analysis of the deposited data

How the results depend on the processing

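No adenosine gene was called with TMM scaling in edgeR, with or without a filter, with a minimum count of 30, with DESeq2 size factors, with robust fitting, in limma-voom or among single-copy genes. The count of higher members was 1 in DESeq2 (Entpd1, log2 fold change 0.81) and 0 to 1 with a library left out. The count of lower members was 2 with library totals alone (Adora2a −0.43, Slc29a1 −0.50), where Ada turned to −0.16. With a library left out, Entpd1 ranged from 0.34 to 1.142, Nt5e from 0.47 to 1.75 and Dpp4 from −0.13 to 0.079 (0.029 without knockout 1). Across all genes, 62 were higher and 9 lower among single-copy genes, and 1432 were lower with library totals alone. The number of lower genes ranged from 87 to 230 with a library left out. Called genes were a larger share of those with over 50% shared words (43.1% higher) than of those with at most 5% (1.45%), and the single-copy fit leaves the first kind out. In the fit of all genes, 155 genes with at most 5% shared words were higher, more than in the single-copy fit. The causes of the changes between settings were not tested.

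Same-numbered libraries did not deviate together (r = −0.037 across 12758 genes), and the labels do not say that a number pairs them. With the replicate number as a block, 2 members were called higher, Entpd1 (0.75, adjusted p = 0.00502 in edgeR) and Nt5e (1.05, adjusted p = 0.0368), and 178 genes were lower over the whole table. The block moved the nucleotide breakdown list to 2 genes called higher, the cyclic AMP list to 2 and the list of channels and P2 receptors to 1. With 2 libraries a label, the intervals of the members leave room for differences of the sizes given beside them.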

Other observations

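Several genes of the adenosine and cyclic AMP lists differed more between libraries of 1 label than between labels. They were picked after their values were seen. Crem, whose transcripts are induced by cyclic AMP, had 75.4 and 84.7 CPM in knockout 1 and knockout 2, against 116.8 and 58.0 CPM in control 1 and control 2. P2rx7, the ATP-gated receptor of T cell death, had 7.06 and 2.76 CPM under the knockout label, against 1.597 and 3.85 CPM under the control label. Ak1, a cytosolic adenylate kinase, had 2.40 and 1.30 CPM against 0.426 and 1.85 CPM. Lrrc32, a marker on the regulatory T cell list, had 103.9 and 103.1 CPM under the knockout label, against 78.3 and 5.84 CPM under the control label. None of the 4 passed the threshold in edgeR (adjusted p = 0.884 for Crem, 0.520 for P2rx7, 0.681 for Ak1 and 0.546 for Lrrc32).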
